A study of Mus musculus with 8 samples.

Results

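The transcripts described here are 32 genes of the p53 response: Trp53, which encodes the factor itself, its relative Trp73, its inhibitor Mdm2, and further genes linked to p53, most of them known to be activated by it. They were chosen by name, and a probe was taken as theirs when its RefSeq accession maps to the gene. All 32 had at least 1 probe, 51 probes in all, and all 32 passed the filter on dim probes, among 31184 genes tested. RNA came from whole kidneys of mouse embryos at E13.5, on a mixed CD1 and C57BL/6 background. Wild type kidneys were compared with mutants that the labels call UB HDAC1,2-/-, in which the ureteric bud lacks a pair of histone deacetylases. The bud is the epithelium that forms the collecting ducts. The labels do not name the transgene that deleted the genes, nor how many embryos gave an RNA. There were 4 biological replicates, each with 1 mutant and 1 wild type RNA hybridised on 2 two-colour arrays with the dyes exchanged, so 8 arrays in all. That is what the sample labels give, while the design text speaks of dye swaps on 2 of 4 arrays, and the ratios here were turned by the labels.

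p53 is a transcription factor that is held at a low level by Mdm2, a ubiquitin ligase whose gene p53 itself switches on. After DNA damage or other stress p53 accumulates, binds response elements near its targets, and these stop the cell cycle, trigger cell death, repair DNA or adjust metabolism. Acetylation of p53 promotes its activity, and deacetylase complexes that contain HDAC1 remove that mark. In the developing kidney, p53 is known to act in both the bud and the nephron progenitors. The comparison here asks whether the transcripts of these targets differ when the bud lacks both enzymes.

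The p53 response element is built of repeats of a decamer. In the RefSeq promoter table of build GRCm38.p6, which gives 250 bases before and 50 bases after each start site, 25 of the 32 genes have an entry, with 35 promoters in all. The 10-letter p53 decamer consensus, which reads the same on both strands, was found in 12 of these 35 promoters (34.3%), against 2745 of all 32851 promoters (8.36%). These 12 promoters belong to 11 genes, because the windows of the start sites of Aen overlap on the same match. A complete element, here a pair of decamers at most 13 bases apart, was found in 0 of the 35 and in 24 of all promoters (0.0731%). A match is a description of these letters and not a shown binding site. The matches are printed with up to 10 flanking bases, 5′ to 3′ on the strand of the gene, since they show which members carry the letters close to a start site. Capitals mark the decamer.

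Trp53 (chr11:69580274-69580303, plus strand): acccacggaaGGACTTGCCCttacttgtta
Mdm2 (chr10:117710925-117710954, minus strand): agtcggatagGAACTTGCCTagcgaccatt
Rap2b (chr3:61364530-61364556, plus strand): gcgacgtactGGGCATGCTCggctggg
Ccng1 (chr11:40755452-40755481, minus strand): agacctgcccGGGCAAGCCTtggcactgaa
Gadd45a (chr6:67037428-67037457, minus strand): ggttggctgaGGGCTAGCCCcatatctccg
Gtse1 (chr15:85859945-85859974, plus strand): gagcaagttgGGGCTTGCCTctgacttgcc
Aen (chr7:78895927-78895956, plus strand): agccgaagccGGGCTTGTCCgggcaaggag
Ei24 (chr9:36797325-36797354, minus strand): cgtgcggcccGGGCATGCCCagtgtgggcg
Polk (chr13:96519399-96519428, minus strand): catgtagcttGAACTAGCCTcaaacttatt
Sesn1 (chr10:41887256-41887285, plus strand): cttggccttcAAGCTTGTTTttgctggcct
Abhd4 (chr14:54259274-54259303, plus strand): cgacccggcaGGGCTTGTTTactatggctg

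Counted from the start site, with upstream positions negative, the decamer starts at -186 in Mdm2, -185 in Ccng1, -75 in Trp53, -40 in Gadd45a, -10 in Ei24, 9 in Gtse1 and 33 in Rap2b. The bases upstream of the start site of 3 members follow: Mdm2, because its product closes the p53 feedback loop, and Ddit4 and Rap2b, which were among the 2 members of smallest p below and above 0. The others of these, Trp53inp1 and Perp, are not in the table. Capitals again mark the decamer, which is present in the stretch of Mdm2 and absent from the stretches of Ddit4 and Rap2b.

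Mdm2 (chr10:117710759-117711008, minus strand): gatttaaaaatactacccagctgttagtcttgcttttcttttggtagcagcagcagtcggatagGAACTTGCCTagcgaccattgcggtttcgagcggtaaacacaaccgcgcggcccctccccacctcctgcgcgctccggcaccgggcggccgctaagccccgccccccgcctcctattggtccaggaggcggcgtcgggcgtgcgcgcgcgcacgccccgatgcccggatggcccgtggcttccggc
Ddit4 (chr10:59951771-59952020, minus strand): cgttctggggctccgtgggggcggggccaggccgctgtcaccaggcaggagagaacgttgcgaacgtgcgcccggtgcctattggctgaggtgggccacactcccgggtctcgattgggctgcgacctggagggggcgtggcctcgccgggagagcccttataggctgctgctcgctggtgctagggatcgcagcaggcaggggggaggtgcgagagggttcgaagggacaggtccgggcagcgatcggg
Rap2b (chr3:61364257-61364506, plus strand): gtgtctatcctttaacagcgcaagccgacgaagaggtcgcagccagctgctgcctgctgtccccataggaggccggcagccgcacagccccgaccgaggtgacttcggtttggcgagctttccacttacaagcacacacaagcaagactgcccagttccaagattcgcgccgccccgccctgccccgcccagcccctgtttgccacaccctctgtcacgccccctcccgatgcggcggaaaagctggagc

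Of the 11 members with a decamer, 7 stood above 0 (median log2 ratio 0.16), and of the 14 members whose listed promoters lacked it, 5 did (median -0.12). The ranges overlapped widely, from -0.39 to 0.31 with a decamer and from -0.39 to 0.18 without. These ratios, as all below, set labelled mutant RNA over labelled wild type RNA, on the log2 scale. Here the sign needs care. The authors' deposited table lists log2 ratios of selected genes, and in all 309 entries whose identifier has 1 probe the sign is opposite to that of the dye labels. That table does not state which genotype is above the other. Should its ratios have the mutant on top, each sign below would turn.

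Hdac2, the deleted gene that was examined, did not settle the labels. Its log2 ratios were 0.60, 0.60 and 0.74 in replicates 1 to 3 and -0.61 in replicate 4, so the channel labelled mutant held more Hdac2 signal in 3 of 4 replicates. Its mean was 0.33 ± 0.63 (SD, n = 4; limma's adjusted p = 0.760), and the bud is only a part of the whole kidney. Hdac1 is not analysed here. All 10 nephron progenitor genes, 10 stromal genes and 12 bud genes of the marker lists passed the filter on dim probes. Six2, Foxd1 and Ret were among them. All 8 skeletal muscle genes and 7 of 8 neuronal genes passed it too, so the filter does not identify the tissue. In whole kidney RNA, fewer cells of a type and less RNA per cell cannot be told apart. The share of spots well above background ran from 79.2% to 97.1% for wild type RNA and from 82.1% to 95.95% for mutant RNA, by array.

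No p53 target gene passed the test. The log2 ratio was above 0 in 16 and below 0 in 16. The median was -0.02, from Trp53inp1 at -0.41 to Perp at 0.53. Over all genes the median was 0.01, with 52.9% above 0. In limma's fit over all genes, 0 members and 3 of 31184 genes (0.00962%) had an adjusted p under 0.05, and the adjusted p of the members lay between 0.662 and 0.9515. At an unadjusted p under 0.05 there were 3 members above 0 (9.38%; Perp, Rap2b and Gadd45a) against 3.14% of all genes, and 3 below 0 (9.38%; Trp53inp1, Ddit4 and Sesn2) against 2.61%. A single member, Perp, was at least 1.4-fold apart, which is 3.12% of the members and 3.29% of all genes. For 17 of the 32 members the 95% interval of limma's mean lay within 1.4-fold in both directions, so a change of that size is outside their intervals, and for the other 15 the interval reached past it on at least 1 side.

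**Figure D1:**
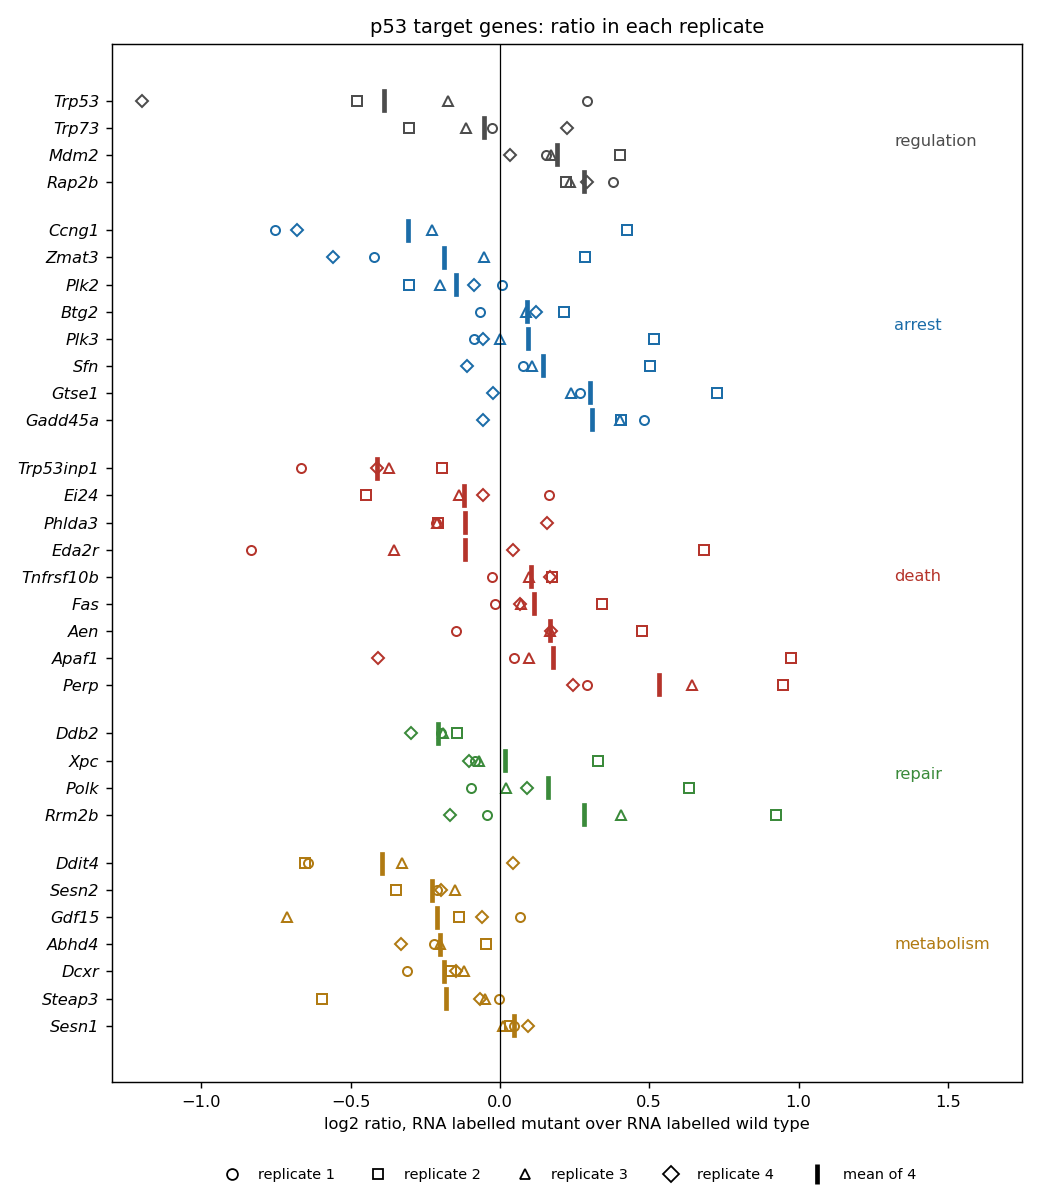
Log2 ratio of each p53 target gene in each of the 4 replicates (open symbols) and its mean (bars), by role. Most members have replicates on both sides of 0, and replicate 2 is the highest of the 4 in 19 members.

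Replicate 2 stood apart from the others. The median ratio of the 32 members was 0.22 in replicate 2 and -0.04, -0.05 and -0.06 in replicates 1, 3 and 4. It was the highest replicate in 19 members and the lowest in 7. Over all genes the median of replicate 2 was 0.07, against 0.00 to 0.05 in the others, and over the 17113 named genes it was 0.12. Among gene lists described below, it was 0.22 for further p53 targets and for G2 and mitosis genes, and 0.21 for p53 regulators. For stromal genes it was 0.08, for nephron progenitor genes 0.02 and for neuronal genes -0.37. In limma's fit with array weights, replicate 2 had the lowest weight, 0.1776, against 1.256 to 3.397 in the others. Its array with the labelled mutant in Cy5 was dimmer for mutant RNA than its dye swap in every member but Rap2b. For Trp73 the log2 signals on these arrays were 8.27 and 11.2 for mutant RNA and 8.84 and 11.24 for wild type RNA. In replicates 1, 3 and 4 mutant RNA of Trp73 was also dimmer in Cy5, at 11.17, 10.99 and 10.9 against 11.44, 11.33 and 11.16. Whether array quality or biology set replicate 2 apart was not tested. Without replicate 2, 14 members stood above 0 and 18 below, and 2 above 0 and 6 below had an unadjusted p under 0.05 (7.95% of all genes in either direction). None of the members passed the adjusted threshold without it. Its absence turned the sign of the mean in Plk3 (to -0.05), Xpc (-0.09), Trp73 (0.03) and Apaf1 (-0.09). It also brought Sfn to 0.03, Fas to 0.04, Aen to 0.06, Btg2 to 0.05 and Steap3 to -0.04.

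The transcript of p53 itself had the widest spread between replicates of all members other than the dim Eda2r. In replicate 1 the processed signal of Trp53, in the scanner's brightness units and as the mean of 2 arrays, was 5687 in the RNA labelled mutant and 4643 in the RNA labelled wild type. Corresponding values were 2577 and 3593 in replicate 2, 5019 and 5662 in replicate 3, and 2996 and 6878 in replicate 4. Thus the labelled mutant was lower in 3 replicates and higher in replicate 1, and the ranges overlapped. The log2 ratios were 0.29, -0.48, -0.17 and -1.20, with a mean of -0.39 ± 0.63 (SD, n = 4; limma's adjusted p = 0.760). In replicate 4 both arrays stood at -0.90 or lower, while in replicate 2 they disagreed, at -1.06 and 0.10. Without replicate 4 the mean was -0.12. A second Trp53 probe had log2 ratios of 0.17, -1.48, -0.11 and 0.12, so it was lowest in replicate 2 and above 0 in replicate 4. The probes of Trp53 therefore gave like means (-0.39 and -0.32) from different replicates. Within slide 1, which holds replicates 1 and 2, the mean of the brighter probe was -0.09, and within slide 2 it was -0.69.

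Mdm2, the inhibitor and a direct p53 target, stood slightly above 0 in 4 of 4 replicates, at 0.15, 0.40, 0.17 and 0.03. Its mean was 0.19 ± 0.15 (SD, n = 4; limma's adjusted p = 0.760). Among all genes, 10.7% were above 0 in 4 of 4 replicates, and 4 of the 32 members were (12.5%). This probe of Mdm2 was above 0 on 6 of 8 arrays, at 0.08 with the labelled mutant in Cy5 and 0.30 with it in Cy3. The other probe of Mdm2 did not share the sign, with 0.04, 0.09, -0.04 and -0.29 and a mean of -0.05. That other probe is printed in 10 spots per array, and the brighter probe in 1. Trp73, the p53 relative p73, had ratios of -0.03, -0.30, -0.11 and 0.22 (mean -0.06 ± 0.22). Rap2b, a small GTPase of the Ras family, held closely together once the dye orientations were averaged, although its arrays in replicate 2 stood at 0.69 and -0.25. Its ratios were 0.38, 0.22, 0.23 and 0.29, with a mean of 0.28 ± 0.07 (SD, n = 4; adjusted p = 0.741). Its other probe stood at 0.09 ± 0.24, with replicate 1 at -0.25. With normexp and loess in place of the scanner's ratios the brighter probe also stood at 0.09.

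**Figure D2:**
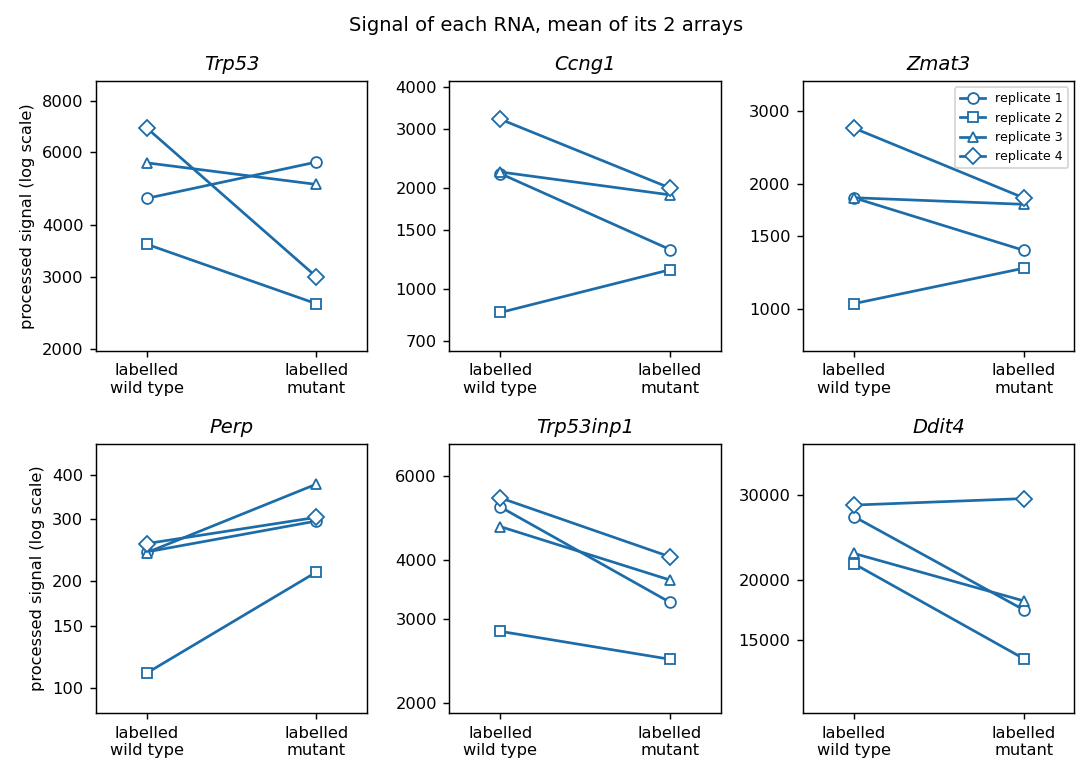
Processed signal of 6 p53 target genes in each RNA (log axis), with a line joining the labelled wild type and labelled mutant RNA of a replicate. The lines of Perp all run upward and those of Trp53inp1 all downward, while Trp53, Ccng1, Zmat3 and Ddit4 have lines in both directions.

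Genes of cell cycle arrest had a median log2 ratio of 0.09, with 5 of 8 above 0, and no member had 1 sign in 4 of 4 replicates. Gadd45a, a stress sensor that slows the cell cycle, stood at 0.48, 0.41, 0.40 and -0.06, so replicate 4 was apart from the others. Its mean was 0.31 ± 0.25 (SD, n = 4; limma's adjusted p = 0.760), and 0.10 with the labelled mutant in Cy5 against 0.52 with it in Cy3. Gtse1, which binds p53 in G2 and exports it from the nucleus, stood at 0.27, 0.73, 0.24 and -0.02 (mean 0.30 ± 0.31). The 21 genes of G2 and mitosis measured beside it had a median of 0.10, with 17 above 0 and 0 at an unadjusted p under 0.05 (limma), and the 2 of smallest p were Top2a at -0.24 and Tpx2 at 0.24. Their part in the Gtse1 ratio was not tested.

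Ccng1, which encodes cyclin G1, and Zmat3, a zinc finger protein that binds RNA, had a like pattern over the replicates. Ccng1 had ratios of -0.75, 0.42, -0.23 and -0.68 (mean -0.31 ± 0.54), and its other probe -0.37, 0.27, -0.03 and -0.64. Zmat3 had -0.42, 0.28, -0.05 and -0.56 (mean -0.19 ± 0.38). In both genes replicate 2 alone stood above 0 and replicates 1 and 4 were the lowest. In replicate 4 the signal of Ccng1 was 2003 in the RNA labelled mutant and 3211 in the RNA labelled wild type, and in replicate 2 it was 1143 and 852. The spread of Ccng1 was wider than that of 88.5% of all genes, and without replicate 2 its mean was -0.55.

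The other arrest genes lay close to 0. Btg2, an antiproliferative protein, had a mean of 0.09 ± 0.12, with probes from -0.10 to 0.09, and the polo-like kinases Plk3 and Plk2 had means of 0.09 ± 0.28 and -0.15 ± 0.14. Plk2 differed between the dye orientations, at 0.09 with the labelled mutant in Cy5 and -0.38 with it in Cy3. Sfn, the 14-3-3 protein that holds cells in G2, stood at 0.08, 0.50, 0.11 and -0.11 (mean 0.14 ± 0.26). A far dimmer second probe of Sfn (mean log2 signal 7.18 against 14.15) stood at -0.10, -0.44, 0.19 and 0.45 (mean 0.03 ± 0.38). The immediate early genes, which respond to tissue handling as several of these genes do, had a median of 0.02 over 20 genes, with 11 above 0, and among them Ier5 stood at 0.26 and Klf4 at -0.33.

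Among the genes of cell death were the highest and the lowest of all members. Perp, an adhesion protein of desmosomes that takes part in p53-dependent death, had signals of 296, 213, 376 and 303 in the RNA labelled mutant of replicates 1 to 4 and 242, 110, 241 and 256 in the RNA labelled wild type. Within each replicate the labelled mutant was higher, on 8 of 8 arrays, while the ranges of the RNAs overlapped. The log2 ratios were 0.29, 0.95, 0.64 and 0.25, with a mean of 0.53 ± 0.33 (SD, n = 4; limma's adjusted p = 0.682), or 0.62 within slide 1 and 0.44 within slide 2. Perp is the 1 member in the authors' deposited table, where its log2 ratio is -0.533. With normexp and loess the mean was 0.30.

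Most genes of the bud epithelium stood above 0 together with Perp. Of 12 bud markers, 9 were above 0, with a median log2 ratio of 0.42, while Ret (-0.05), Wnt9b (-0.13) and Gfra1 (-0.17) were below. At an unadjusted p under 0.05 (limma) there were 8, each above 0, against 3.14% of all genes above 0. Those of smallest p were Krt18 at 1.14 ± 0.20 (SD, n = 4; adjusted p = 0.0988) and Tfcp2l1 at 1.13 ± 0.08 (adjusted p = 0.0618). The mean log2 signal of the 12 lay between 11.43 and 12.16 over the RNAs labelled mutant and between 11.18 and 11.58 over those labelled wild type. Trp63, which encodes the p53 relative p63 of stratified epithelia, stood at 0.25, 0.98, 0.41 and 0.32 (mean 0.49 ± 0.33; adjusted p = 0.729). The part of the bud epithelium in the Perp ratio was not tested.

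Trp53inp1, a nuclear protein that promotes p53-driven death and autophagy, was the lowest member. Its signals in the RNA labelled mutant were 3256, 2471, 3628 and 4060, and in the RNA labelled wild type 5168, 2829, 4699 and 5401. The labelled mutant was lower within each replicate and on 8 of 8 arrays, although the ranges of the RNAs overlapped. The log2 ratios were -0.67, -0.19, -0.37 and -0.41 (mean -0.41 ± 0.19; limma's adjusted p = 0.662). The dye orientations gave the same value, -0.41 and -0.41, and the slides gave -0.43 and -0.39. The other probe stood at -0.28 ± 0.46, with replicate 2 at 0.40.

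The receptors and effectors of death lay between these. Fas, the death receptor, had a mean of 0.11 ± 0.16, and Tnfrsf10b, the mouse TRAIL receptor, had 0.10 ± 0.09. A dim further probe of Tnfrsf10b stood at -0.42 ± 0.71 and turned the mean over its probes to -0.08. Eda2r, the ectodysplasin A2 receptor, was the dimmest member, with mutant RNA well above background on 6 of 8 arrays and wild type RNA on 7 of 8, and its ratios of -0.84, 0.68, -0.36 and 0.04 had no common sign. Apaf1, the scaffold of the apoptosome, had ratios of 0.05, 0.97, 0.10 and -0.41 (mean 0.18 ± 0.58), or -0.09 without replicate 2. Aen, a nuclease of apoptotic cells, stood at 0.17 ± 0.25. Phlda3, a repressor of Akt, had -0.21 in each of replicates 1 to 3 and 0.16 in replicate 4 (mean -0.12 ± 0.18), and Ei24, a membrane protein of the endoplasmic reticulum, had a mean of -0.12 ± 0.25, or -0.01 without replicate 2 and 0.01 with normexp and loess.

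Of the 4 DNA repair genes, Ddb2 alone held 1 sign. Ddb2, which recognises ultraviolet damage, had ratios of -0.20, -0.14, -0.19 and -0.30, below 0 on 8 of 8 arrays (mean -0.21 ± 0.06; limma's adjusted p = 0.760). Of all genes, 5.44% were below 0 in 4 of 4 replicates, and 6 of the 32 members were (18.8%): Ddb2, Trp53inp1 and the metabolic genes Sesn2, Abhd4, Dcxr and Steap3. Xpc, its partner in damage recognition, stood at 0.02 ± 0.21. Polk, a translesion polymerase, stood at -0.10, 0.63, 0.02 and 0.09 (mean 0.16 ± 0.32), so replicate 2 carried its mean, which was 0.0048 without it. A dim second probe of Polk stood at -0.21. Rrm2b, the p53-induced subunit of ribonucleotide reductase, had -0.04, 0.92, 0.41 and -0.17 (mean 0.28 ± 0.49). Without replicate 2 its mean was 0.07, and with normexp and loess it was 0.03.

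Metabolic targets stood below 0 in 6 of 7 cases, with a median log2 ratio of -0.20. The median was below 0 in each replicate, at -0.21, -0.17, -0.15 and -0.07, which was so for no other group of members. The roles were assigned with earlier results of these data known, so the contrast between groups is a description and was not tested. Over the RNAs labelled mutant the mean log2 signal of the 7 genes lay between 10.82 and 11.42, and over those labelled wild type between 11.09 and 11.51, so the groups overlapped. Ddit4, an inhibitor of the growth kinase mTORC1 that also responds to low oxygen, had signals of 17320, 13710, 18070 and 29470 in the RNA labelled mutant and 27040, 21580, 22670 and 28570 in the RNA labelled wild type. It was lower in replicates 1 to 3 and about level in replicate 4, with ratios of -0.64, -0.65, -0.33 and 0.045 (mean -0.39 ± 0.33; limma's adjusted p = 0.760). The slides differed, at -0.65 within slide 1 and -0.14 within slide 2. The 12 hypoxia genes measured beside it had a median of 0.04, with 7 above 0 and 5 below (Vegfa at -0.17, Slc2a1 at 0.13) and 0 at an unadjusted p under 0.05 (limma).

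Sesn2, a sestrin that restrains mTORC1 under stress, stood at -0.21, -0.35, -0.15 and -0.20 (mean -0.23 ± 0.08; limma's adjusted p = 0.760). This mean came from unequal dye orientations, -0.01 with the labelled mutant in Cy5 and -0.44 with it in Cy3, and with normexp and loess it was -0.11. Its relative Sesn1 had the smallest spread of all members over the averaged replicate ratios, at 0.05, 0.03, 0.01 and 0.09 (mean 0.05 ± 0.04). This spread was below that of all but 0.606% of the genes. The dye orientations behind it had opposite signs, -0.10 with the labelled mutant in Cy5 and 0.19 with it in Cy3. Its dimmer probes stood at 0.22 and 0.48.

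The remaining metabolic genes were Abhd4, a lipid hydrolase, at -0.22, -0.05, -0.20 and -0.33 (mean -0.20 ± 0.12), and Dcxr, a xylulose reductase, at -0.31, -0.17, -0.12 and -0.15 (mean -0.19 ± 0.09). Dcxr stood at -0.33 with the labelled mutant in Cy5 and -0.05 with it in Cy3. Steap3, an iron reductase, averaged near 0 in replicates 1, 3 and 4 (-0.004, -0.05 and -0.07) and was at -0.60 in replicate 2 (mean -0.18 ± 0.28). The arrays of a replicate disagreed, at 0.33 and -0.43 in replicate 3 and 0.28 and -0.41 in replicate 4. With the labelled mutant in Cy5 the mean of Steap3 was 0.02, and with it in Cy3 it was -0.38. Gdf15, a secreted stress cytokine, stood at 0.07, -0.14, -0.71 and -0.06 (mean -0.21 ± 0.34), so replicate 3 carried its mean. None of these passed limma's test (adjusted p = 0.760 for each).

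**Figure D3:**
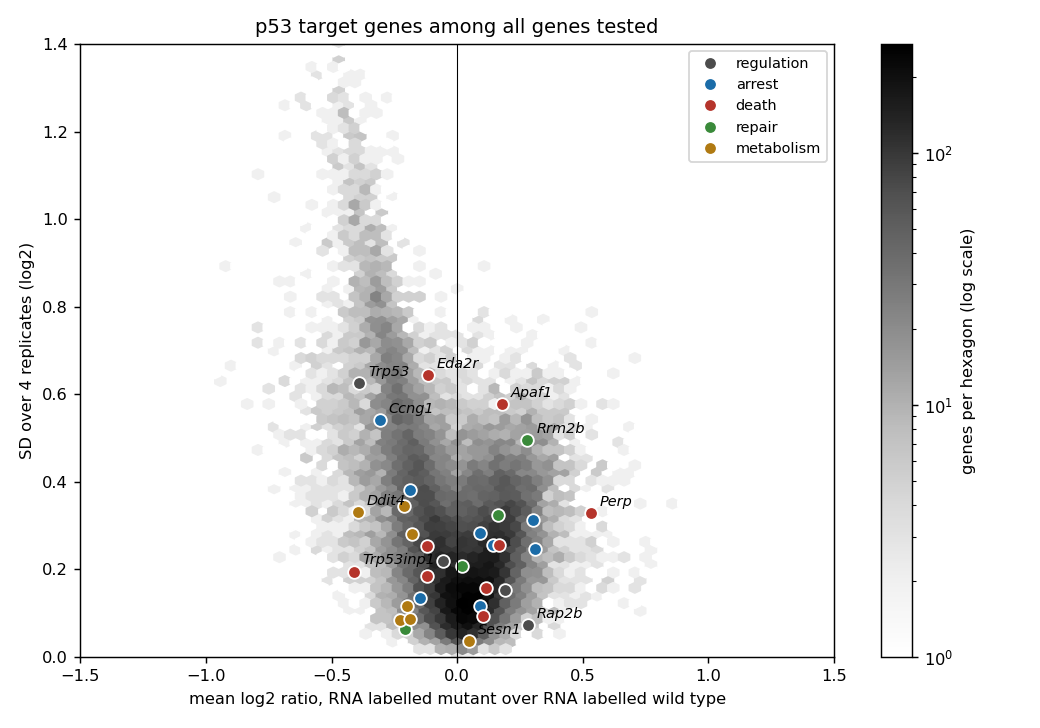
Mean log2 ratio (horizontal) against the SD over the 4 replicates (vertical) of all genes tested (grey, log-scaled density) and of the p53 target genes (coloured by role). Perp and Trp53inp1 lie at the right and left edges of the members, and Trp53, Eda2r, Apaf1 and Ccng1 have the widest spread.

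Several members gave an answer that depended on the probe. Of the 15 members with more than 1 probe, 10 had probes of 1 sign and 5 of both signs (Mdm2, Btg2, Tnfrsf10b, Polk and Apaf1). The dye orientations gave 1 sign in 27 of the 32 members and opposite signs in 5. With normexp and loess in place of the scanner's ratios, the value of 19 members moved by over 1.5 times or changed sign, and 15 members stood above 0 instead of 16.

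**Figure D4:**
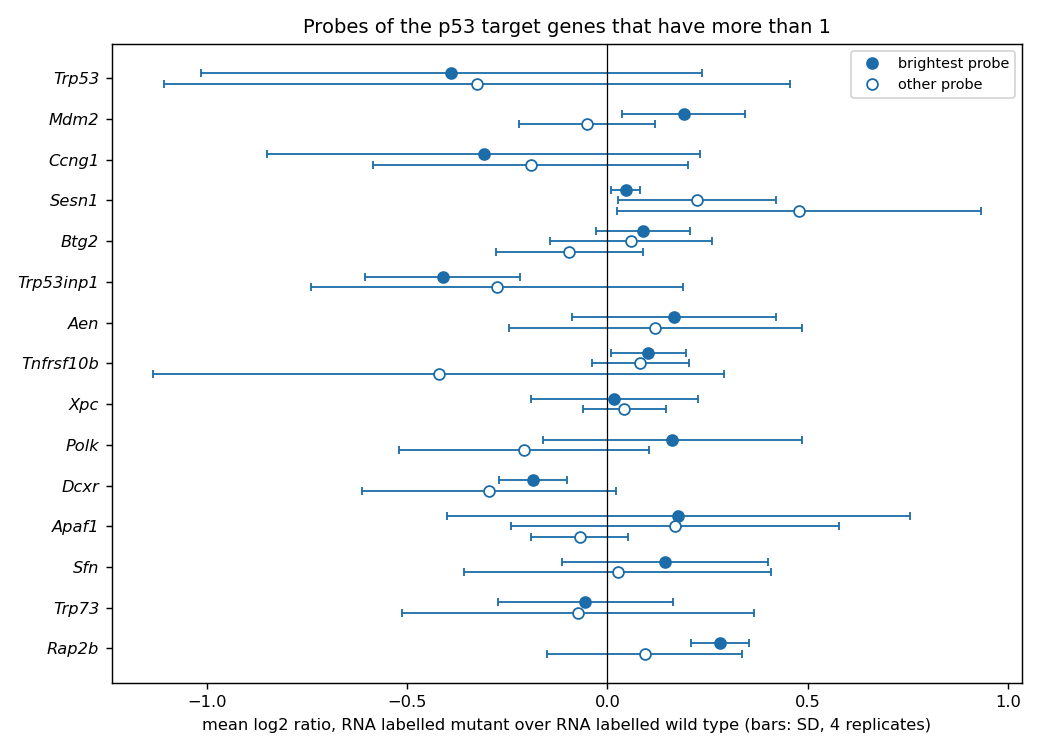
Mean log2 ratio and SD over 4 replicates (bars) of every probe of the 15 members that have more than 1, with the brightest probe filled. The bars of the probes of a gene overlap in all 15, and in 5 genes the means lie on both sides of 0.

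No further gene of the p53 pathway passed the test. Of 25 further targets measured, 15 stood above 0 and 10 below (median log2 ratio 0.06), and 0 had an unadjusted p under 0.05 in limma. Among these, Cdkn1a, the cell cycle inhibitor p21, stood at 0.12 ± 0.39 (SD, n = 4), and the death genes Bax, Bbc3 and Pmaip1 at 0.07 ± 0.20, -0.06 ± 0.18 and 0.19 ± 0.05. Pmaip1 was above 0 in each replicate, from 0.13 to 0.25 (adjusted p = 0.760). Pcna, the replication clamp, stood at 0.17 ± 0.21. Of 22 regulators of p53, 14 stood above 0 and 8 below (median 0.07), with 1 in each direction at an unadjusted p under 0.05, Trp63 above and Usp7 below. Usp7, which removes ubiquitin from p53 and Mdm2, had ratios of -0.43, -0.17, -0.22 and -0.19 (mean -0.25 ± 0.12; adjusted p = 0.760). Mdm4, the partner of Mdm2, stood at 0.10 ± 0.15.

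**Figure D5:**
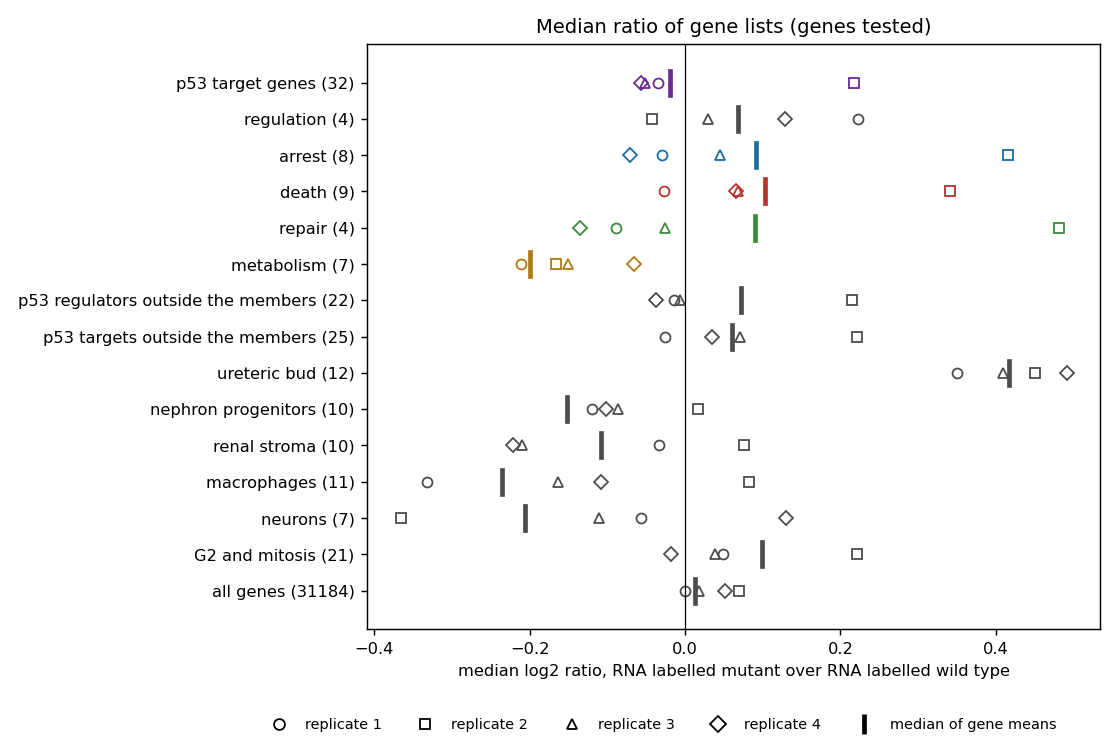
Median log2 ratio of the p53 target genes, their roles, further pathway genes, cell type markers and all genes, in each replicate (open symbols) and over the gene means (bars), with the number of genes tested. Replicate 2 is the highest of the 4 for all p53 target genes together and for arrest, death and repair, but the lowest for regulation. It is also the highest for further p53 targets, p53 regulators, G2 and mitosis genes and all genes, and the lowest for neuronal genes. The metabolic targets lie below 0 in each replicate, and the bud markers lie between 0.35 and 0.49.

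No marker list of another cell type was tested, and their medians stood at different distances from 0. Macrophage genes had a median log2 ratio of -0.24, with 9 of 11 below 0, a mean log2 signal of 8.70 to 9.08 over the RNAs labelled mutant and 8.73 to 9.24 over those labelled wild type, and C1qa at -0.37 and Ptprc at 0.53. Neuronal genes had a median of -0.21, with 6 of 7 below 0, a mean log2 signal of 8.93 to 9.24 over the RNAs labelled mutant and 9.22 to 9.47 over those labelled wild type, and Stmn2 at -0.71 and Ngfr at -0.50. Stromal genes stood at -0.11 with 7 of 10 below 0 (Col1a1 at -0.29, Meis1 at -0.28), nephron progenitor genes at -0.15 with 9 of 10 below 0 (Wt1 at -0.29, Gdnf at 0.20) and erythroid genes at -0.09 with 7 of 9 below 0. The medians of endothelial (0.05), adrenal and gonadal (-0.02) and muscle genes (-0.01) were nearer 0. Their part in the ratios of the p53 target genes was not tested.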

How the data were processed

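A total of 4 mutant and 4 wild type kidney RNAs, paired by replicate, were measured on 8 two-colour Agilent arrays, with 0.5 µg of total RNA per labelling per the labels. Spots were read by Feature Extraction 10.5.1.1, per the file headers. The deposited log10 ratio is red (Cy5) over green (Cy3), formed by the scanner software from processed signals. The deposited intensity columns hold these processed signals, background-subtracted and dye-normalized, and the median brightness of spot and background. The log ratio of a spot not above background in both channels is set to 0 in the files. The deposited p-value of each spot's ratio was not used. The authors' deposited table gives log2 ratios of selected genes, with no direction stated. The deposited flags and ratio errors have no other unit.

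Log10 ratios were turned to log2 of labelled mutant over labelled wild type. Control spots (1639 of 45018) and spots with an outlier flag were left out, spots of a probe were averaged, and the 2 dye orientations of a replicate were averaged. Of 41174 probes, 39521 were kept because 1 or both channels were well above background on 4 or more of the 8 arrays. With the brightest probe taken for each gene this left 31184 genes, of which RefSeq (GRCm38.p6) names 17113. All 32 members had values in all 4 replicates. No spot was saturated. The number of arrays limits the precision. Replicates 1 and 2 lie on 1 slide and 3 and 4 on another.

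Replicate ratios were tested against 0 with limma 3.58.1 in R 4.3.3 (lmFit and eBayes, two-sided), and p-values were adjusted over all genes (Benjamini-Hochberg, threshold 0.05). The ratio pairs the RNAs that share arrays. The fit was tested on simulated ratios. Alternatives were normexp (offset 50) with loess, median centring, other filters and probe rules, the replicate block, separate channels, slides, dye orientations, array weights and leaving out replicates. The members, their roles and the gene lists were chosen with earlier results of these data known, so lists are described by counts and medians without a test. All members are named, Hdac2 for the labels, and from each pathway list and some marker lists the 2 genes of smallest p, with further pathway genes (Cdkn1a, Bax, Bbc3, Mdm4, Six2, Foxd1 and Ret) added after their values were seen.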

Additional observations from a re-analysis of the deposited data

Results flagged for a closer look

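In 5 of the 32 members 1 replicate lay far from the other 3, by a gap beyond Dixon's 95% limit for 4 values. Such gaps were found in 11.6% of all genes, where chance gives about 1 in 20. The replicates concerned were replicate 2 of Plk3, at a log2 ratio of 0.51, of Xpc, at 0.33, and of Steap3, at -0.60, and replicate 4 of Phlda3, at 0.16, and of Gadd45a, at -0.056. The other replicates of Plk3 lay between -0.09 and 0.00, those of Xpc between -0.10 and -0.07, those of Steap3 between -0.07 and -0.00, those of Phlda3 at -0.21 and those of Gadd45a between 0.40 and 0.48.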

How the results depend on the processing

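No member passed the adjusted threshold under any alternative run, where the smallest adjusted p of a member was 0.0759, with array weights. The median of the 32 members stayed within the spread of its replicates (SD 0.133), from -0.07 with the mean over the probes of a gene to 0.05 without replicate 1. The count of genes called over all genes was 3 in the fit reported and depended on the setting. It was 0 with normexp and loess, with no filter on dim probes and within slide 1, 1 with slide as a block and on arrays with the labelled mutant in Cy5, and 5 with the mean over probes. It was 11 with both channels above background on all arrays, 13 with separate channels and no replicate block, 22 with the labelled mutant in Cy3, 107 with the 8 arrays and the replicate block (consensus correlation 0.282), 229 with array weights and 721 within slide 2. Leaving out each replicate gave 0 to 11, the highest without replicate 2. The direction was opposite and the distance from 0 had exceeded 1 SD in 3 cases: Tnfrsf10b at -0.0788 with the mean over its probes, and Sesn1 at -0.10 and Plk2 at 0.0897 with the labelled mutant in Cy5. The cause was not tested. With loess 44.6% of all genes stood above 0, and with median centring 44.7%, against 52.9%.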
